A study of Mus musculus with 6 samples.

Results

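The nuclear genes for respiratory complexes II, III, IV and V, with cytochrome c, were compared in mouse retina between animals labelled knockout for ERRβ (gene Esrrb), a nuclear receptor with no known natural ligand, and wildtype. A gene was included where a probe set carried only its symbol and that symbol was Sdha, Sdhb, Sdhc, Sdhd, Cyc1, Cycs or Atpif1, or began with Uqcr, with Cox4 to Cox8, or with Atp5. This gave 49 genes of the 18193 on the array: 4 of complex II, 9 of complex III, 1 for cytochrome c, 17 of complex IV and 18 of complex V. Of their 99 probe sets, 89 passed the filter on low signal, and 48 genes had at least 1 that did. Each gene was followed by its brightest kept probe set, and its other probe sets were set beside it. No gene differed beyond the threshold by its brightest probe set, and every change of a brightest probe set was smaller than 1.5-fold.

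Complex II, succinate dehydrogenase, feeds electrons from the citric acid cycle to ubiquinone, complex III passes them to cytochrome c, and complex IV hands them to oxygen. Complex V, the ATP synthase, uses the proton gradient built by the chain to make ATP. Photoreceptors hold densely packed mitochondria in their inner segments and use much ATP to pump ions in the dark, and receptors of the ERR family bind near many genes of the chain in other energy-demanding tissues.

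RNA was taken from retina at postnatal day 21 in 3 wildtype samples of strain C57Bl/6 and 3 labelled ERRβ -/- of mixed C57Bl/6 x Sv129 strain, each from 2 pooled retinas, with sex given as mixed, on standard chow and a regular light and dark cycle in both groups. The labels give no further allele or agent and do not say whether replicates came from separate animals, and the p-values reflect no more than the variation among these 6 samples, which may be technical. Genotype and strain cannot be told apart. The deposited intensities stood on 2 scales: replicates 1 and 2 of each group had a trimmed mean near 500, and replicate 3 of each group near 150. Log2 fold changes (labelled knockout minus wildtype) average both scales and are given with their standard error (SE; 3 arrays in each group) and an adjusted p from limma with the scale as a block.

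On average the 3 Esrrb probe sets were not lower in the labelled knockout, though 1 of them read 442 there against 458 in wildtype near 150. The brightest read 2951, 2934 and 1771 in wildtype replicates 1, 2 and 3 and 3435, 4012 and 2397 in the labelled knockout (log2 fold change 0.37 ± 0.082 SE, limma adjusted p = 0.0529). No source used here places these probe sets relative to the deletion, so they do not check the label. Among rod photoreceptor markers, 11 of 12 listed genes were on the array and kept, and their summed signal was 314571 to 315105 in wildtype and 250003 to 279539 in the labelled knockout near 500, and 44580 and 43640 near 150. The median change of the rod genes was -0.25, with 0 of 11 past the threshold. Lens markers were higher in the labelled knockout, with 14 of 15 kept genes past the threshold and summed signals of 3062 to 7851 against 45783 to 66164. Of 9 kept pigment epithelium and choroid markers, 4 rose, and all 10 listed markers summed to 33045 and 33759 in wildtype against 38491 and 45588 near 500, and 953 against 1686 near 150. The Actb 3′ to 5′ signal ratio, a measure of RNA integrity, was 1.83, 1.89 and 2.32 in wildtype and 1.82, 1.66 and 1.67 in the labelled knockout. The same ratio for Gapdh differed less, at 0.73, 0.71 and 0.78 in wildtype and 0.73, 0.72 and 0.73 in the labelled knockout. The part of these differences in the values of the respiratory genes was not tested, and in whole retina fewer cells of a type and less RNA per cell cannot be told apart.

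Across the 48 measured genes, 0 passed the adjusted threshold of 0.05 with limma, beside 2.75% of all 12536 genes (1.28% higher and 1.48% lower). At an unadjusted p under 0.05 there were 12 higher and 2 lower, which is 14 of 48, and the shares of all genes were 11.5% and 9.84%. The median log2 fold change of the 48 was 0.09, against 0.02 over all genes, and 62.5% were above 0, against 53.1% of all genes. By complex the medians were 0.09 for complex II, 0.15 for complex III, 0.05 for complex IV and 0.06 for complex V, and the lone cytochrome c gene stood at -0.08. The 35 genes of complex I measured in the same way had a median of 0.11 and 85.7% above 0, with 0 higher and 1 lower past the threshold.

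**Figure D1:**
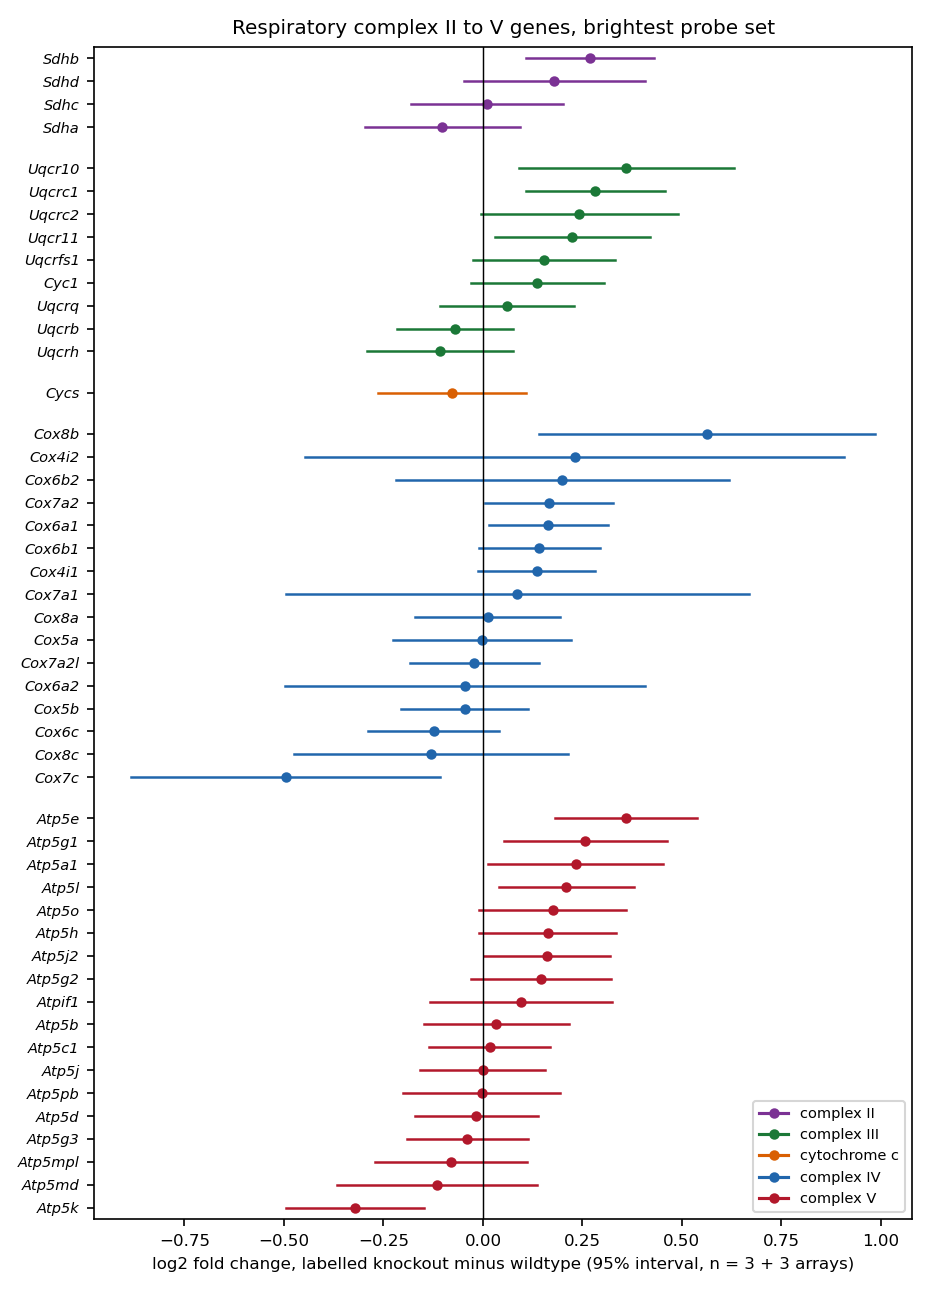
Log2 fold change (labelled knockout minus wildtype, x axis) of the brightest kept probe set of each of the 48 genes, grouped by complex, with bars for the 95% interval from limma. Atp5e and Uqcr10 lie at 0.36 and Atp5k at -0.32, and the widest intervals belong to dim isoform genes of complex IV such as Cox4i2.

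The count of 0 depended on the arrays and the filter. With replicates 1 and 2 of each group alone, 6 genes were called higher (Atp5e, Atp5h, Cox7a2, Cox8b, Sdhb and Uqcrc2) and 1 lower (Atp5k), beside 7.48% and 6.83% of all genes. The same genes were called without wildtype replicate 3, beside 7.04% and 6.85%, and without labelled knockout replicate 3, beside 6.98% and 6.96%. A stricter filter gave 1 higher (Atp5e) and 1 lower (Atp5k) of 45, beside 2.6% and 2.84%, and the median over the probe sets of a gene gave 2 higher (Atp5e and Cox6a1) and 0 lower, beside 1.92% and 1.44%. With a replicate block in place of the scale, 0 genes were called, beside 0.495% higher and 0.431% lower.

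By the brightest probe set, the 95% interval was narrow for most of these genes. The 95% interval lay inside a 1.5-fold change in either direction for 42 of the 48 genes, or 87.5%, against 62.1% of all genes and 90.4% of all genes with a mean signal of at least 1024. Of the 48 respiratory genes 40 were that bright, and 39 of those 40 had such an interval. All 18 complex V genes and all 4 complex II genes were inside it. Such an interval covers 1 probe set and not the others of its gene. Uqcrc2 was inside it, while another bright probe set of Uqcrc2 had a change of -0.77. Complex IV had the lowest share, 11 of 16, and most of its others were dim tissue isoforms.

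The direction of change held across both scales more often upward than downward. Near 150 each group had 1 array, so an overlap between groups could be seen near 500 alone. In 18 genes, or 37.5%, every labelled knockout array was above every wildtype array of its scale, beside 19.8% of all genes and 24.2% of the bright genes. They comprised Sdhb of complex II, 5 genes of complex III (Uqcr10, Uqcr11, Uqcrc1, Uqcrfs1 and Cyc1), 5 of complex IV (Cox4i1, Cox6a1, Cox6b1, Cox7a2 and Cox8b) and 7 of complex V (Atp5e, Atp5g1, Atp5g2, Atp5h, Atp5j2, Atp5l and Atp5o). In 4 genes, or 8.33%, every labelled knockout array was below, beside 15.5% of all genes and 21.3% of the bright genes: Uqcrb, Uqcrh, Cox7c and Atp5k. The upward lean was not particular to these complexes. Of the 35 complex I genes, 15 (42.9%) were above in this way and 3 (8.57%) below. Across the 48 genes the change near 500 and the change near 150 had the same sign in 33, with a Pearson r of 0.35 and a Spearman rho of 0.36, as a description over genes measured on shared arrays. Over all genes these were 7091 of 12536, 0.27 and 0.18.

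**Figure D2:**
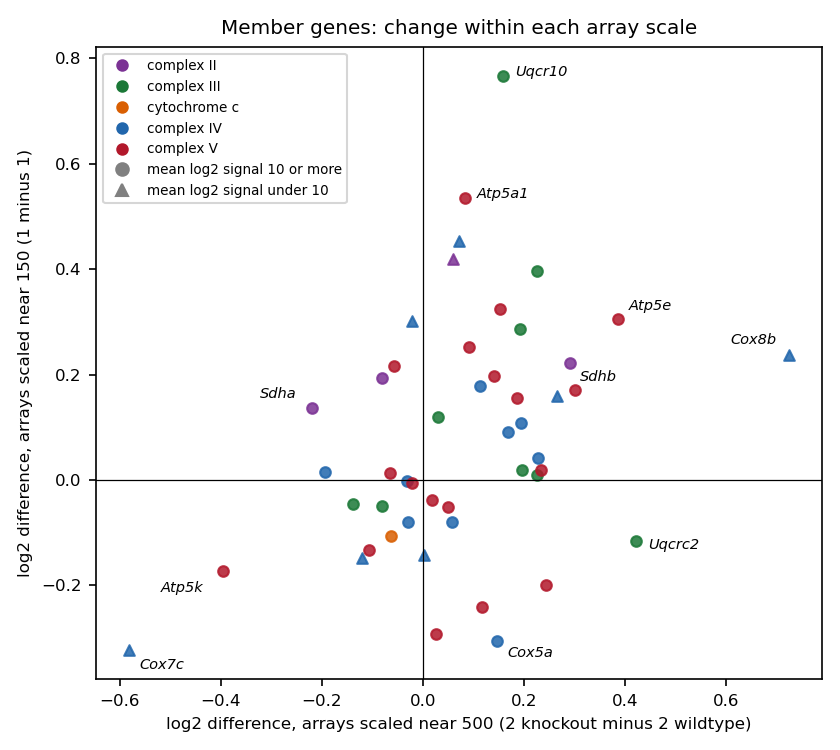
Change within the arrays scaled near 500 (x axis) against the change within the arrays scaled near 150 (y axis), both as log2 labelled knockout minus wildtype, 1 point per gene coloured by complex, with triangles for a mean log2 signal under 10. Uqcr10 lies high on the y axis at 0.77 against 0.16 on the x axis, while Uqcrc2 lies at 0.42 near 500 and -0.12 near 150.

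The promoters of these genes were read for the letters bound by factors known for mitochondrial genes, because ERR proteins recognise a short core site. RefSeq windows (GRCm38.p6), from 250 bases before to 50 after each start, were found for 37 of the 49 genes. The ERR core AAGGTCA, searched on both strands, was in 6 of the 37 (16.2%), beside 5.38% of the windows of all 27025 genes and 3.81% of those of the 10098 genes measured here. The longer form TCAAGGTCA, which contains it, was in 2 (5.41%), beside 0.466% and 0.337%. Each of the 6 sites is shown 5′ to 3′ on the strand of its gene, which is the minus strand in every case, with the 7 bases of the site in capitals. The capitals read TGACCTT where the site lies on the opposite strand of the gene.
Atp5g3, chr2:73911361-73911389: ttgttacaaagTGACCTTgagcgtcttcc
Sdhd, chr9:50603800-50603824: gggttgtagagTGACCTTgagccct
Atp5e, chr2:174464060-174464088: ctactcaggccTGACCTTcctgctgccgg
Atp5l, chr9:44920738-44920766: gaggggcagccTGACCTTggaaatgggga
Atp5k, chr5:108434359-108434387: cttccggcgcgAAGGTCAcggacaaaatg
Atpif1, chr4:132535636-132535664: cctcactgtagAAGGTCAtaaatgcctcc

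The ERR core began 52 bases before the start in Atp5g3, 13 before it in Atp5l and 239 before it in Atpif1. It began at base 24 after the start in Atp5k, 25 in Atp5e and 37 in Sdhd. The changes of these 6 genes ran from -0.32 in Atp5k to 0.36 in Atp5e, with a median of 0.14 and 4 of 6 above 0. All 36 genes with a window and a kept probe set had a median of 0.12 and ran from -0.50 to 0.56. Atp5g3, which has the longer form of the site, had a change of -0.04 ± 0.068 SE, and Sdhd, which also has it, 0.18 ± 0.10 SE. A match is a description of letters and not evidence of binding. The 250 bases before the start of Atp5g3 are shown for context, with the 9 bases of the longer form in capitals.
Atp5g3, chr2:73911327-73911576: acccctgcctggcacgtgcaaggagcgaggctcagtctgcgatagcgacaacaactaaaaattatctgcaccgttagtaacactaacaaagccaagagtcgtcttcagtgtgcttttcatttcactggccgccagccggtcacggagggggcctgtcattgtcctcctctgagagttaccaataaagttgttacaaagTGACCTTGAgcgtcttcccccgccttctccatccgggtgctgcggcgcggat

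Core sites of other factors were more common in these windows. The core bound by NRF1, an activator of nuclear genes for mitochondria, is GCGC, any base and TGCGC, and on either strand it was in 11 of 37 windows (29.7%), beside 5.19% of all genes and 11.3% of the measured genes. CCGGAAG, a core bound by ETS factors such as GABP, was on either strand in 13 of 37 (35.1%), beside 9.93% and 19.1%. The 11 genes with the NRF1 core had a median change of 0.15 and the 13 with the ETS core 0.16. Cox6a1, a subunit gene with a probe set past the threshold, has 2 matches to the NRF1 core in the 250 bases before its start, given on its own strand (minus), where capitals mark the matched bases.
Cox6a1, chr5:115348959-115349208: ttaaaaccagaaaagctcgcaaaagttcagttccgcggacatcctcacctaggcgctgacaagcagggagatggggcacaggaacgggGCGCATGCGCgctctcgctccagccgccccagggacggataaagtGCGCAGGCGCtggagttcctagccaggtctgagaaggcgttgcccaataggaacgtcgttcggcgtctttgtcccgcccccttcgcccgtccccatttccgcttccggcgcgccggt

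In complex II the 4 subunits differed in the sign and size of their changes. Sdhb, the iron-sulfur subunit, read 4527 and 4577 in wildtype and 5673 and 5466 in the labelled knockout near 500, and 514 against 599 near 150. Every labelled knockout array was above the wildtype arrays of its scale, and the change was 0.27 ± 0.071 SE (limma adjusted p = 0.0853). Sdha, the flavoprotein that oxidises succinate, read 8358 and 8705 against 7286 and 7356 near 500 and 1222 against 1342 near 150. Its arrays were thus lower in the labelled knockout near 500 and higher near 150, and its mean change was -0.10 ± 0.087 SE (limma adjusted p = 0.548). The membrane anchors did not pass the threshold either. Sdhd had a change of 0.06 near 500 and 0.42 near 150, and Sdhc of -0.08 and 0.19.

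In complex III 7 of the 9 genes were above 0. Uqcr10, a small subunit, read 3358 and 3364 against 3737 and 3761 near 500 and 222 against 379 near 150. The labelled knockout was higher on both scales, but the difference near 150 was much the larger, and the change was 0.36 ± 0.12 SE (limma adjusted p = 0.141). Its 2 other kept probe sets, both dimmer, had changes of 0.18 ± 0.10 SE and -0.02 ± 0.16 SE. Near 150 they stood at 0.12 and -0.42, so neither repeated the 0.77 of the brightest. Uqcrc1, a core subunit on the matrix side, read 5764 and 5582 against 6331 and 6947 near 500 and 585 against 769 near 150 (0.28 ± 0.078 SE, limma adjusted p = 0.0942). Uqcr11, another small subunit, had a change of 0.22 ± 0.086 SE and was higher in the labelled knockout on both scales. The electron carriers of the complex lay closer to 0. Uqcrfs1, the Rieske iron-sulfur protein, had 0.23 near 500 and 0.01 near 150, and Cyc1, cytochrome c1, had 0.20 and 0.02. Uqcrq had a change of 0.06 ± 0.075 SE.

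The lower members of complex III were both small subunits. Uqcrb, which lies near the ubiquinone site, read 23030 and 22460 in wildtype and 21687 and 21330 in the labelled knockout near 500, and 2990 against 2890 near 150. The groups did not overlap, yet the change was only -0.07 ± 0.065 SE. Uqcrh, the hinge protein that helps cytochrome c dock, had -0.11 ± 0.081 SE. Cycs, the soluble cytochrome c that carries electrons on to complex IV, read 9119 and 10952 against 9717 and 9420 near 500 and 1470 against 1366 near 150, so its groups overlapped, with a change of -0.08 ± 0.083 SE.

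Uqcrc2, the second core subunit of complex III, gave opposite results by its probe sets. The brightest read 6304 and 6968 in wildtype and 8671 and 9084 in the labelled knockout near 500, and 842 against 778 near 150, with a change of 0.24 ± 0.11 SE (limma adjusted p = 0.256). Another bright probe set read 7556 and 8169 against 3946 and 3763 near 500 and 1207 against 1015 near 150. That probe set was lower in the labelled knockout by limma (-0.77 ± 0.14 SE, adjusted p = 0.0284), where 2.25% of all kept probe sets were past the threshold and 1.22% were lower. With a replicate block its adjusted p was 0.0706, and 0.74% of all kept probe sets passed. Leaving out any 1 of the 4 arrays near 500 ended the call, with adjusted p from 0.133 to 0.183 by limma, and so did a fit with no variance trend (0.248). Most calls over all genes ended in these fits too. From 2.75% of all genes, the share called fell to between 0.359% and 0.566% without 1 of those arrays, and to 0.104% with no variance trend.

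The signal of the brightest probe set of Uqcrc2 over that of the other was 0.834, 0.853 and 0.698 in wildtype replicates 1, 2 and 3. In the labelled knockout it was 2.20, 2.41 and 0.766. Every labelled knockout array was above the wildtype arrays of its scale, by far more near 500 than near 150, and the ratio was looked at after its values were seen, so it was given no test. The probe sets' changes differed by 1.01 on the log2 scale. Of 850 genes with at least 2 probe sets this bright, 7, or 0.824%, had a spread of 1 or more, and among 20 respiratory genes it was Uqcrc2 alone. The median spread was 0.11 in both sets. Which part of the transcript each probe set reads was not analysed here, and the groups also differ in strain.

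**Figure D3:**
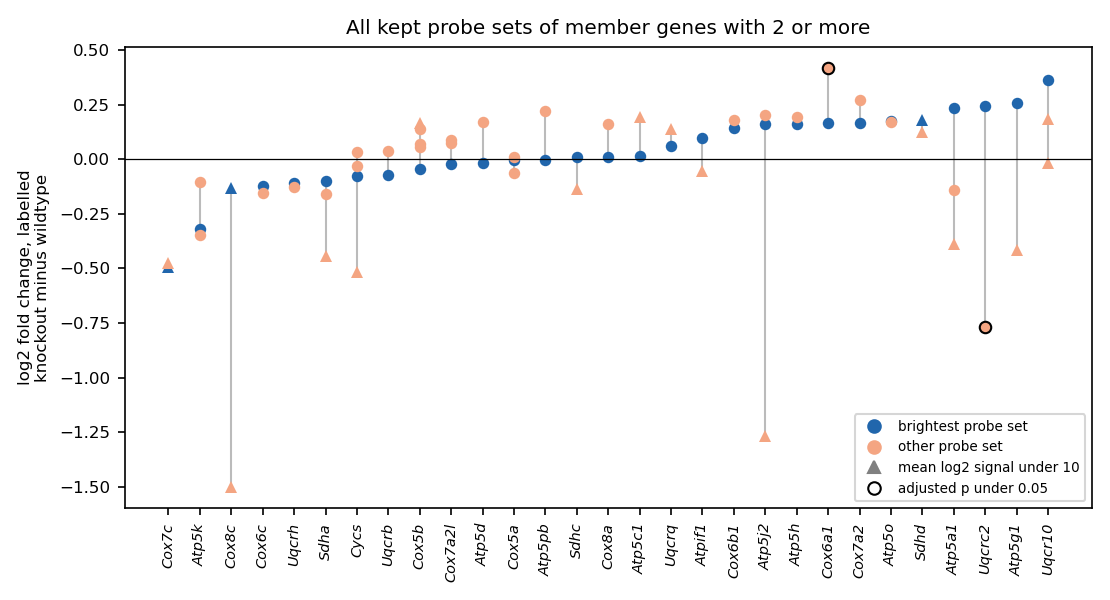
Log2 fold change (labelled knockout minus wildtype, y axis) of every kept probe set of the 29 genes with 2 or more, a column per gene, in blue for the brightest and orange for the others, with triangles for a mean log2 signal under 10 and black outlines for an adjusted p under 0.05. Uqcrc2 spans 0.24 to -0.77, and its lower probe set and the upper one of Cox6a1 carry the outlines.

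Most genes of complex IV, cytochrome c oxidase, stood close to 0. The bright subunits expressed in most tissues included Cox7a2, which read 14910 and 14565 in wildtype and 17062 and 17470 in the labelled knockout near 500, and 1695 against 1744 near 150. Its groups did not overlap, with a change of 0.17 ± 0.071 SE (limma adjusted p = 0.23). Cox4i1, the common form of the subunit that binds regulatory nucleotides, had 0.13 ± 0.066 SE, and Cox6b1, which faces the intermembrane space, 0.14 ± 0.068 SE. Cox8a had 0.01 ± 0.081 SE, Cox5a 0.00 ± 0.10 SE and Cox5b -0.05 ± 0.071 SE. Cox6c, a small membrane subunit, read 13098 and 13129 against 11227 and 11710 near 500 but 1424 against 1439 near 150, and its change was -0.12 ± 0.074 SE.

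Cox6a1, the common form of a regulatory subunit, was higher by 1 of its probe sets. The brightest read 20186 and 20087 in wildtype and 22566 and 23491 in the labelled knockout near 500, and 2566 against 2763 near 150 (0.16 ± 0.067 SE, limma adjusted p = 0.206). The other read 6519 and 6276 against 8523 and 9209 near 500 and 938 against 1166 near 150. Both probe sets had every labelled knockout array above the wildtype arrays of its scale, and the dimmer one passed the threshold (0.42 ± 0.075 SE, limma adjusted p = 0.0262, or 0.0774 with a replicate block), as 1.04% of all kept probe sets did in the same direction. This call also ended when any 1 of the 4 arrays near 500 was left out (limma adjusted p from 0.104 to 0.207) and with no variance trend (0.251). The former fits called 0.359% to 0.566% of all genes and the latter 0.104%. Its name ends in a suffix that Affymetrix gives to probe sets matching several transcripts.

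The tissue isoforms of complex IV had dim probe sets. Cox8b, the form found in heart and skeletal muscle, read 279 and 333 in wildtype and 489 and 519 in the labelled knockout near 500, and 31.8 against 37.5 near 150. Its groups did not overlap, and its change was the highest of the 48, 0.56 ± 0.19 SE, without passing the threshold (limma adjusted p = 0.142). Of 12 striated muscle markers, 3 passed the filter on low signal, with 0 past the threshold and a median of 0.02. The summed signal of all 12, by array, was 285 to 1575 in wildtype and 292 to 1650 in the labelled knockout. The other muscle forms differed less than their spread, with Cox6a2 at -0.05 ± 0.20 SE and Cox7a1 at 0.09 ± 0.26 SE.

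Among the remaining isoforms, Cox4i2, a form known from lung, had a change of 0.23 ± 0.30 SE at signals of 79.4 to 141 near 500. Cox6b2, Cox8c and Cox7b2 are forms known from testis. Cox6b2 had a change of 0.20 ± 0.19 SE and Cox8c of -0.13 ± 0.15 SE. Cox8c read 286 and 306 in wildtype near 500 and 304 near 150, and thus did not follow the scale of its arrays. Cox7b2 did not pass the filter, with signals of 39.999 and 25.1 in wildtype and 26.9 and 15.8 in the labelled knockout near 500, and 16.1 against 14.1 near 150. Cox7a2l, a Cox7a-like protein that helps join complexes III and IV, had -0.02 ± 0.072 SE.

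Cox7c, a membrane subunit of complex IV, had the lowest change of all 48 genes. It read 349 and 439 in wildtype and 285 and 241 in the labelled knockout near 500, and 98.8 against 79.0 near 150. The labelled knockout was lower on both scales, and the change was -0.50 ± 0.17 SE (limma adjusted p = 0.155). Its second probe set had -0.48 ± 0.25 SE. Both probe sets of Cox7c were dim, with mean log2 signals of 7.70 and 6.42, beside 12.9 for Cox7a2. Which part of the transcript they read was not analysed here.

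**Figure D4:**
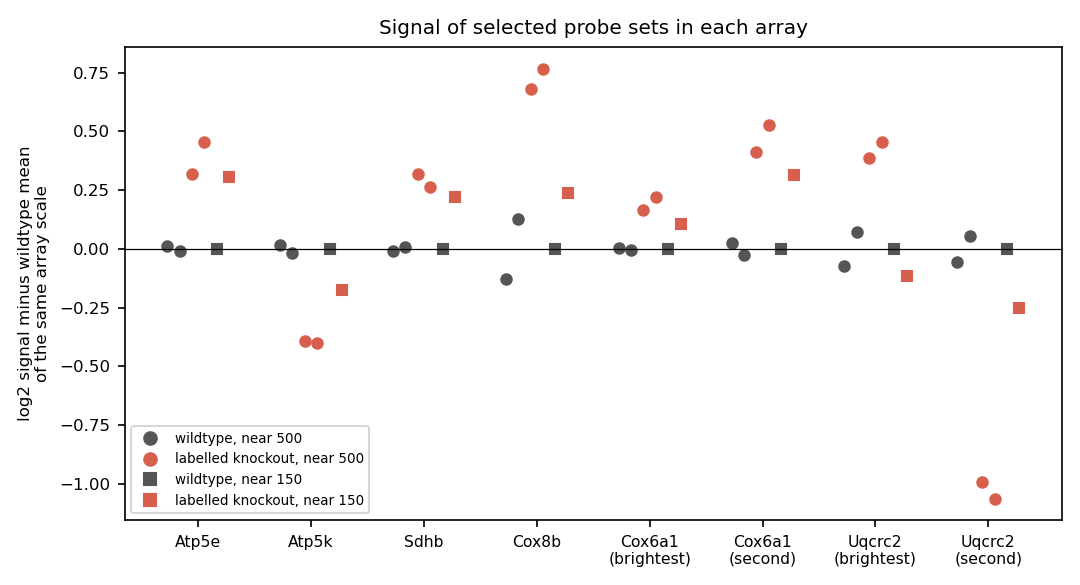
Log2 signal of selected probe sets in each of the 6 arrays, minus the wildtype mean of the same scale (y axis), in grey for wildtype and red for labelled knockout, with circles near 500 and squares near 150, where the lone wildtype array is 0 by construction. Atp5e has its labelled knockout arrays above 0 and Atp5k below 0 on both scales, and the second probe set of Uqcrc2 is lower by -1.03 near 500 but -0.25 near 150.

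In complex V, both the nearest approaches to the threshold were small subunits, and they ran in opposite directions. Atp5e, the epsilon subunit of the central stalk, read 3390 and 3341 in wildtype and 4193 and 4614 in the labelled knockout near 500, and 294 against 363 near 150. The groups did not overlap, and the change was 0.36 ± 0.079 SE, or 1.28-fold, with a 95% interval of 0.18 to 0.54 (limma adjusted p = 0.0514). Atp5k, subunit e of the membrane part, where it helps ATP synthases pair into dimers, read 7407 and 7244 against 5587 and 5545 near 500 and 634 against 562 near 150. Its groups did not overlap either, with a change of -0.32 ± 0.077 SE and an interval of -0.49 to -0.15 (limma adjusted p = 0.0632). Both have the ERR core printed above, at base 25 and base 24 after the start. Both also have the ETS core, and Atp5k has the NRF1 core as well. The part of these sites in the changes was not tested.

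The probe sets of Atp5k did not all give the same size. One had -0.35 ± 0.078 SE (limma adjusted p = 0.0546), while another was at -0.30 near 500 and 0.29 near 150, with a mean of -0.10 ± 0.12 SE. Of the Atp5k probe sets, only that last one lacks a suffix that marks a match to several transcripts. The single probe set of Atp5e has such a suffix too. With a stricter filter on low signal both genes passed (limma adjusted p = 0.038 for Atp5e). Over the alternatives that tested each gene, the limma adjusted p ran from 0.00907 to 1.00 for Atp5e and from 0.0039 to 1.00 for Atp5k. Without the probe sets that have such a suffix, Atp5e was not tested and the change of Atp5k was -0.10.

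The catalytic head and central stalk of complex V lay close to 0 except for Atp5a1 and Atp5e. Atp5b, the beta subunit with the catalytic sites, read 21749 and 22899 in wildtype and 20626 and 22295 in the labelled knockout near 500, and 2997 against 3481 near 150 (0.03 ± 0.081 SE). Atp5a1, the alpha subunit, had 0.08 near 500 and 0.54 near 150 by its brightest probe set. Its 2 other kept probe sets were at -0.14 and -0.39, so its probe sets differed in sign. Atp5c1, the gamma subunit, and Atp5d, the delta subunit, had 0.02 ± 0.068 SE and -0.02 ± 0.069 SE.

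The 3 genes for the membrane ring, Atp5g1, Atp5g2 and Atp5g3, encode the same mature c subunit. Atp5g1 read 3190 and 2768 in wildtype and 3482 and 3851 in the labelled knockout near 500, and 323 against 363 near 150 (0.26 ± 0.091 SE, limma adjusted p = 0.158). Atp5g2 had 0.15 ± 0.078 SE, and Atp5g3 had -0.04 ± 0.068 SE. Atp5g1 and Atp5g2 were higher in every labelled knockout array than in the wildtype arrays of its scale. The arrays of Atp5g3 read 20261 and 20163 against 18703 and 19944 near 500 and 3014 against 3043 near 150.

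The outer stalk and membrane subunits of complex V lay on both sides of 0. Atp5o, which ties the outer stalk to the head, had 0.18 ± 0.082 SE, Atp5h of the outer stalk had 0.16 ± 0.076 SE, and the membrane subunits Atp5l and Atp5j2 had 0.21 ± 0.075 SE and 0.16 ± 0.071 SE. All 4 were higher in every labelled knockout array than in the wildtype arrays of its scale, as were 19.8% of all genes. Atp5j and Atp5pb, further outer stalk subunits, both stood at 0.00, though a second probe set of Atp5pb was at 0.22 ± 0.071 SE. The small membrane proteins Atp5mpl and Atp5md had -0.08 ± 0.085 SE and -0.12 ± 0.11 SE. Atpif1, which blocks ATP hydrolysis when the gradient collapses, read 3916 in both wildtype arrays and 4832 and 4448 in the labelled knockout near 500, but 399 against 348 near 150. Its change was 0.10 ± 0.10 SE.

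Of 29 genes with at least 2 kept probe sets, all the others had the sign of the brightest in 15. None of the others had that sign in Atp5a1, Atp5d, Atp5g1, Atp5pb, Atpif1, Cox5b, Cox7a2l, Sdhc, Uqcrb and Uqcrc2. The others were at -0.42 for Atp5g1 and from 0.05 to 0.17 for Cox5b. Among the 41 other kept probe sets, the pair of Uqcrc2 and Cox6a1 described above were those past the threshold. The widest differences besides Uqcrc2 came from dim probe sets, one of Cox8c at -1.50 ± 0.85 SE and one of Atp5j2 at -1.27 ± 0.44 SE, neither past the threshold. For 10 genes, Atp5e, Atp5k and Cox7c among them, the brightest probe set had a suffix that marks a match to several transcripts. Near-identical copies of these genes could share probes, and the part of cross-hybridisation was not tested.

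Genes that build or serve the complexes were taken from a list of assembly factors, carriers and regulators. Of 55 on the array, 53 were kept, and 1 rose and 0 fell, beside the 1.28% and 1.48% of all genes, with a median of 0.06. The gene that rose was Uqcc2, an assembly factor for complex III, which read 3818 and 3390 in wildtype and 4605 and 4663 in the labelled knockout near 500, and 400 against 517 near 150. Its groups did not overlap, and the change was 0.37 ± 0.079 SE (limma adjusted p = 0.0487, or 0.112 with a replicate block). Over the other alternatives its limma adjusted p ran from 0.0137 to 1.00. It missed the threshold with no filter (0.0734), with other scalings (0.0591 and 0.0658) and with the median over its probe sets (0.332, with a change of 0.18). It also missed it with no variance trend (0.257) and without any 1 of the 4 arrays near 500 (0.144 to 0.267). Of all genes, 0.104% were called with no variance trend and 0.359% to 0.566% without 1 of those arrays.

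Assembly factors of complex IV, of which 20 were kept, had a median of 0.12 with 15 above 0. Sco2, which delivers copper to the enzyme, had the largest change, 0.56 (limma adjusted p = 0.182), and Cox10, which makes its heme, the lowest, -0.22 ± 0.12 SE. The 4 assembly factors of complex II had a median of 0.29, with Sdhaf3 highest at 0.36 ± 0.13 SE and Sdhaf4 lowest at -0.02 ± 0.093 SE. The carriers that exchange ATP, ADP and phosphate with the matrix had a median of -0.08, from -0.14 in Slc25a5 to 0.02 in Slc25a3. Of the cristae and supercomplex genes, Chchd6 had 0.27 ± 0.11 SE and Chchd3 -0.22 ± 0.094 SE. The 9 measured genes of mitochondrial transcription and copy number had a median of 0.03, from -0.07 in Gabpb1 to 0.28 in Tfam. Ndufa4, now placed with complex IV, had -0.21 ± 0.073 SE. The subunits encoded in mitochondrial DNA were not analysed here.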

How the data were processed

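The authors deposited 1 intensity for each probe set in each array, linear in scale, and the submitters' processing notes name MAS5 and GCOS 1.4, with no order or settings stated in the notes available. Per the labels, RNA went through 1 oligo dT amplification round and biotin labelling, so probe sets read near the 3′ end. Groups and replicate numbers came from the sample titles. Of 45101 probe sets, 64 controls were left out, and 27022 with a mean log2 signal at or above the 40th percentile (a geometric mean of 54.5) were kept. Log2 signals were fitted with lmFit and trended eBayes of limma 3.58.1 (R 4.3.3, two-sided tests), with the scale as a block and Benjamini-Hochberg adjustment over all kept probe sets at 0.05. The fit was tested on simulated data. The brightest kept probe set stood for each gene, named from the platform's annotation where it had 1 symbol. Array median signals were 114 to 135 near 500 and 57.3 to 61.5 near 150. Array data carry no read depth, and the number of arrays limits precision.

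Every gene of the rule was named. Fuller values went to the largest and smallest changes of each complex and to isoform groups, and from the list of assembly and related genes to those past the threshold and the extremes of larger sublists. Members and lists were chosen with earlier results of these data known. Rod, Müller glia, lens, pigment epithelium and choroid, striated muscle and blood markers were checked. Of the Müller glia markers, 0 of 10 passed, with a median of 0.16, and of the blood markers 0 of 2, with a median of -1.05. Same-numbered samples deviated together from their group means, with r of 0.57 for number 1, 0.67 for number 2 and 0.843 for number 3, so the numbers pair the samples by rule, but crossed pairs of 1 and 2 gave 0.607 and 0.627, and within the 4 arrays near 500 alone the same-number r was 0.0153, so the numbers 1 and 2 showed no pairing beyond the scale. Alternatives changed the filter, block, scaling, probe set choice, added signal, variance trend and the arrays used.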

Additional observations from a re-analysis of the deposited data

How the results depend on the processing

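Over 17 alternatives, 30 of the 48 genes kept 1 sign wherever they were tested (22 higher and 8 lower), and 18 changed sign in at least 1. Not all of these could change a sign. A change of block or variance trend leaves the log2 fold change as it was, and the filters moved no sign. Replicates 1 and 2 alone and leaving out either replicate 3 gave the same changes. The count of 30 thus does not rest on 17 separate checks. Calls of members moved to 1 higher and 1 lower with the stricter filter, beside 2.6% and 2.84% of all genes. With the median over kept probe sets they moved to 2 higher and 0 lower, beside 1.92% and 1.44%. With replicates 1 and 2 alone they moved to 6 higher and 1 lower, beside 7.48% and 6.83%. Leaving out 1 array at a time gave 0 to 6 higher and 0 to 1 lower. The 6 and the 1 came without wildtype replicate 3 and without knockout replicate 3, each of which leaves the arrays near 150 with no comparison. The shares of all genes called higher and lower were 7.04% and 6.85% in the former and 6.98% and 6.96% in the latter. Leaving out any other array gave 0 higher and 0 lower, beside 0.359% to 0.566% of all genes called. With a replicate block, which pairs arrays of the same number, 0 were called higher and 0 lower, and it removed the calls of the second probe sets of Uqcrc2 and Cox6a1 and of Uqcc2. All genes called fell from 345 to 116 with that block, to 13 with no variance trend and to 0 with no scaling block.

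The complex IV median of 0.05 was 0.0116 with no filter and with the stricter filter, and 0.11 with the median over probe sets. Without probe sets ending in _x_at or _s_at it was also 0.11, that of complex V 0.15 and that of all members 0.14. With 1 array left out, medians ran from 0.07 to 0.09 for all members, -0.01 to 0.13 for complex II, 0.12 to 0.19 for complex III, 0.0127 to 0.0647 for complex IV and 0.05 to 0.09 for complex V, and the cytochrome c gene from -0.16 to -0.01. The cause of these shifts was not tested. Uqcrc2 ran from -0.26 to 0.42. Signal near background limits Cox4i2, Cox6a2 and Cox7a1.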

Other observations

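The respiratory genes differed from other genes in how their signal changed between the scales. In wildtype, the mean signal of replicates 1 and 2 over that of replicate 3 had a median of 3.34 over all genes and 8.51 over the 48 respiratory genes. It ran from 0.972 in Cox8c to 17.1 in Uqcrh. Among all genes with a mean signal of at least 1024 the median was 4.01. No comparison of the report rests on this ratio, since each scale holds both groups.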
